A study of Mus musculus with 14 samples.

Results

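The hemoglobin genes are described here across the libraries and cell types of mouse retina and brain vascular fragments. *Hba-a1* and *Hba-a2* encode alpha chains, *Hbb-bs* and *Hbb-bt* encode beta chains, and *Alas2* encodes the erythroid form of the enzyme that opens heme synthesis. They are 5 of the 28316 genes listed for the retina and 5 of the 26528 listed for the brain. They were chosen by name for their measured UMIs (unique molecular identifiers, each counting 1 captured transcript), summed per cell type label and library, to ask whether red cell RNA marks hemorrhage in the mutant libraries. Since these values chose the genes, their levels are given as a description, with no test.

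Hemoglobin carries oxygen in red blood cells, where alpha and beta chains assemble around heme. Mammalian red cells lose their nucleus before they circulate, but young ones, the reticulocytes, still hold globin mRNA, and low globin transcript levels have also been described in some neurons and glia. Heme that leaves red cells is broken down by heme oxygenase, and the iron it held is stored in ferritin.

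Single nuclei were captured with PIPseq, a droplet method in which PCR copies of a tagged transcript count as 1 UMI. The retina has 1 control and 11 CKO libraries, and brain vascular fragments have 1 control and 1 CKO library, each from 2 pooled brains. CKO mice were *Cdh5CreER;Tgfbr1 CKO/-*, with Cre under the *Cdh5* promoter, which is active in endothelial cells (ECs), and with 4-hydroxytamoxifen given on postnatal days 3 to 5. The control mice are labeled wild type, and the study describes its phenotypically wild-type controls as typically *Cdh5CreER;Tgfbr1 CKO/+*, without a genotype for these libraries in particular. Their tamoxifen treatment and the number of mice per retina library are not stated in the sources used. The methods for brain vascular fragments describe dissection after cervical dislocation, with no perfusion step, and none is given for the retina nuclei. The mice were at postnatal day 14 according to the methods, but young adult according to the labels.

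The control retina library held 11513 nuclei and 30989702 UMIs. The CKO retina libraries, called CKO1 to CKO11, held from 104 to 18862 nuclei and from 90449 to 55803724 UMIs. The authors' metadata place the control and CKO1 to CKO3 in batch 1, CKO4 and CKO5 in batch 2 and CKO6 to CKO11 in batch 3, without saying what defines a batch. CKO8 to CKO11 were made with a later kit than the others. Only batch 1 allows a comparison of the genotypes within a batch. The brain control library held 16649 nuclei and 49798325 UMIs, and the brain CKO library 14675 nuclei and 31033373 UMIs.

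CKO4 stands apart from the other retina libraries. It held 104 nuclei, of which 65 were labeled immune and 0 were rods, and the study names it, with CKO5, as a library whose nuclei prompted the removal of clusters by hand. Its values are named where they set a range, with the value without it. Among 77676 retina nuclei, 10 barcode sequences occurred in more than 1 library, which touches 20 nuclei, and among 31324 brain nuclei 2 sequences did, which touches 4 nuclei. *Tgfbr1*, the targeted gene, was at 89.0 CPM (UMIs of the gene per 1e6 UMIs of the library) in the control retina and between 71.4 and 87.0 CPM in the CKO libraries other than CKO4, where 33 UMIs gave 365 CPM. In brain nuclei labeled ECs, *Tgfbr1* was at 69.1 CPM of their own UMIs in the control and 62.9 CPM in the CKO library. These counts cannot show the deletion, since transcripts that lack the deleted stretch are counted like intact ones.

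In the retina, the summed UMIs of the 4 globin genes were higher in every CKO library than in the control. The control held 103 globin UMIs, or 3.32 CPM (95% Poisson interval 2.71 to 4.03). The CKO libraries ranged from 58.9 CPM in CKO3 through a median of 149 CPM in CKO2 to 3472 CPM in CKO4. Without CKO4 the highest library was CKO5 at 257 CPM and the median was 144 CPM. The CKO median was 44.9 times the control over all libraries and 43.4 times without CKO4. With equal weight to each nucleus it was 77.8 times the control, which was then at 1.59 CPM. Within batch 1 the ratio of the median to the control was 38.9, with CKO1 at 129 CPM, CKO2 at 149 CPM and CKO3 at 58.9 CPM. The genotypes did not overlap, and CKO libraries of all 3 batches and both kits were high. Intervals here and elsewhere cover counting error only, and the retina has a single control library, so variation among controls is unknown.

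The alpha chain genes followed the sum. *Hba-a1* (chr11:32233186-32234504, plus strand, GRCm39) was at 0.742 CPM in the control, from 23 UMIs. It was at 10.9 CPM in the lowest CKO library, 24.9 in the median and 774 in the highest. *Hba-a2* (chr11:32246168-32247320, plus strand) was at 0.710 CPM in the control, from 22 UMIs, and at 10.4 CPM in the lowest CKO library, 34.4 in the median and 586 in the highest. Both genes were lowest in CKO3 and highest in CKO4, and neither overlapped the control. Without CKO4 their highest values were 52.9 and 59.7 CPM. Their annotated transcripts, of 738 and 647 bases, share 646 identical bases with 1 mismatch in the stretch they have in common, so the split of UMIs between these paralogs is uncertain and their sum is the firmer value.

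The beta chain genes showed the same order of libraries at its lower and upper end. *Hbb-bs* (chr7:103475730-103482989, minus strand), which had the most UMIs of the 4 with no correction for length, was at 1.52 CPM in the control, from 47 UMIs. It was at 33.0 CPM in the lowest CKO library, 63.8 in the median and 1692 in the highest. *Hbb-bt* (chr7:103461727-103465047, minus strand) was at 0.355 CPM in the control, from 11 UMIs, and at 4.66 CPM in the lowest CKO library, 13.1 in the median and 420.1 in the highest. Neither beta chain gene overlapped the control, and without CKO4 their highest values were 117 and 28.0 CPM. Their transcripts, of 664 and 704 bases, are identical at 86.4% of aligned positions, with 50 mismatches, so reads that cover the shared stretches can be assigned to either.

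*Alas2* (chrX:149330371-149353634, plus strand), which red cell precursors need to make heme, did not follow the globin genes over libraries. It was at 2.52 CPM in the control (78 UMIs, interval 1.99 to 3.14). The CKO libraries ranged from 0.896 CPM in CKO5 through a median of 3.74 CPM in CKO8 to 11.1 CPM in CKO4, where the value rests on 1 UMI, and the highest without CKO4 was 4.81 CPM in CKO11. The genotypes overlapped, since CKO5 and CKO6 lay below the control and the other 9 CKO libraries above it. CKO5, the library with the second highest globin level, had the lowest *Alas2* level. In batch 1, *Alas2* was between 2.59 and 4.51 CPM in the CKO libraries.

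Of the 5 genes, the 4 globin genes were above the control in 11 of 11 CKO libraries, a pattern that 713 of the 20904 genes tested, or 3.41%, also had. It was also found in 10 of 10 CKO libraries without CKO4, which 7.37% of genes showed. A CKO median of at least 10 times the control, which each of the 4 globin genes also had, was found for 21 genes, or 0.1%. These counts use the values that chose the genes, and nothing is read from them.

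**Figure D1:**
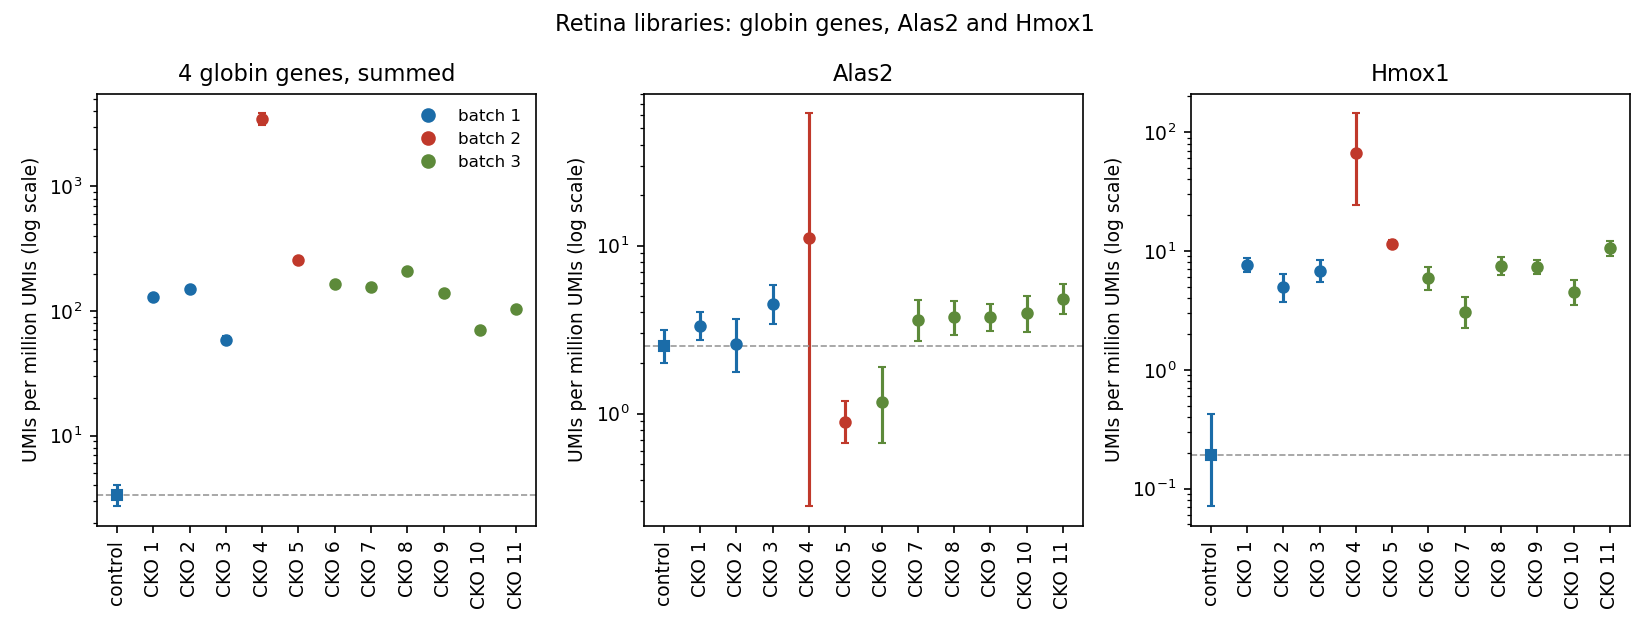
Summed globin, *Alas2* and *Hmox1* levels in each retina library, in CPM on log axes, with the control as a square, CKO libraries as circles colored by batch, 95% Poisson intervals as bars and the control level as a dashed line. All 11 CKO libraries lie above the control for the globin genes, from 58.9 to 3472 CPM against 3.32, and for *Hmox1*, whereas *Alas2* values lie on both sides of the control.

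Alpha chain transcripts made up 43.7% of globin UMIs in the control and between 33.6% and 44.9% in the CKO libraries. *Hbb-bt* made up 19.0% of beta chain UMIs in the control and between 8.83% in CKO6 and 25.5% in CKO2. The control values lay inside the CKO range for both shares. The balance of the 2 beta chain genes also varied between nuclei. Among 104 retina nuclei with at least 20 beta chain UMIs, the share of *Hbb-bt* ranged from 0 to 55.0%, with a median of 15.0%. It was under 10% in 33 nuclei, between 10% and 20% in 32 and at least 20% in 39. Among 1179 brain nuclei with as many beta chain UMIs the median was 19.4%, and the same classes held 119, 500 and 560 nuclei.

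More nuclei held a globin UMI in CKO retinas. In the control 92 of 11513 nuclei did, or 0.799% (95% exact binomial interval 0.645 to 0.979), and none of them held more than 2 globin UMIs. In the CKO libraries the share ranged from 1.57% in CKO7 through a median of 7.67% to 19.7% in CKO9. The groups did not overlap, and the libraries of the later kit, whose nuclei are deeper, were among the highest. Because a deeper nucleus is more likely to show a UMI, the shares were also computed for nuclei thinned to 500 UMIs. The control was then at 0.0737% and the CKO libraries at 0.437% to 11.6%, with a median of 1.87% and, without CKO4, a highest value of 2.70%. The order of the genotypes was the same at both depths.

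Rods are mature photoreceptors with no known role in making hemoglobin and serve as a background. Of rod nuclei, 0.408% held a globin UMI in the control and 3.68% in the median CKO library, at median depths of 961 and 1080 UMIs. After thinning these shares were 0.0632% and 1.39%. Globin UMIs in rod nuclei were thus more frequent in the median CKO library too.

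Globin UMIs were found in nuclei of all 11 retina labels. The label RBC reads like red blood cells but names rod bipolar cells, since *Prkca*, a rod bipolar cell marker, was at 15071 CPM there and at no more than 1311 CPM elsewhere. The median over CKO libraries, among sums of at least 50000 UMIs, was highest in immune cells at 169 CPM (SD 332, n = 10 libraries). Horizontal cells followed at 159 CPM (SD 154, n = 10) and rods at 158 CPM (SD 136, n = 10). These values differ by far less than the spread between libraries.

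Müller glia were at a median of 133 CPM (SD 281, n = 10) and cone bipolar cells at 131 CPM (SD 51.5, n = 10). Retinal ganglion cells were at 90.9 CPM (SD 91.5, n = 10), rod bipolar cells at 88.1 CPM (SD 182, n = 10) and astrocytes at 80.4 CPM (SD 67.9, n = 7). Glycinergic amacrine cells were at 71.8 CPM (SD 205, n = 10), cones at 62.6 CPM (SD 74.3, n = 10) and GABAergic amacrine cells at 51.4 CPM (SD 26.0, n = 10). No neighbors in this order differ beyond their spread. In the control the labels ranged from 0 UMIs in astrocytes to 8.74 CPM in immune cells, the latter from 1 UMI. All 10 CKO libraries lay above the control in 7 labels, 9 of 10 in retinal ganglion cells and rod bipolar cells and 8 of 10 in cones. In astrocytes the control had 0 UMIs, which allows up to 95.9 CPM (3 counts of the total), so the CKO median of 80.4 CPM is not shown to exceed it.

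Rods held 37.7% of the globin UMIs of the CKO libraries and 25.2% of all their UMIs. Nuclei labeled immune held 3.52% of the globin UMIs and 1.13% of all UMIs. Globin CPM was higher in immune nuclei than in the other nuclei in 6 of 11 CKO libraries. Without immune nuclei the CKO median was 149 CPM against 3.304 in the control, whereas CKO4, with 297 of its 314 globin UMIs in immune nuclei, fell from 3472 to 359 CPM (358.5). The share of nuclei with a globin UMI after thinning, as a median over CKO libraries, ran from 0.503% in cones to 5.99% in immune cells, with Müller glia at 4.57% and horizontal cells at 3.78%. *Alas2* ran from 1.32 CPM in retinal ganglion cells to 5.11 CPM in cones over the pooled CKO nuclei.

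**Figure D2:**
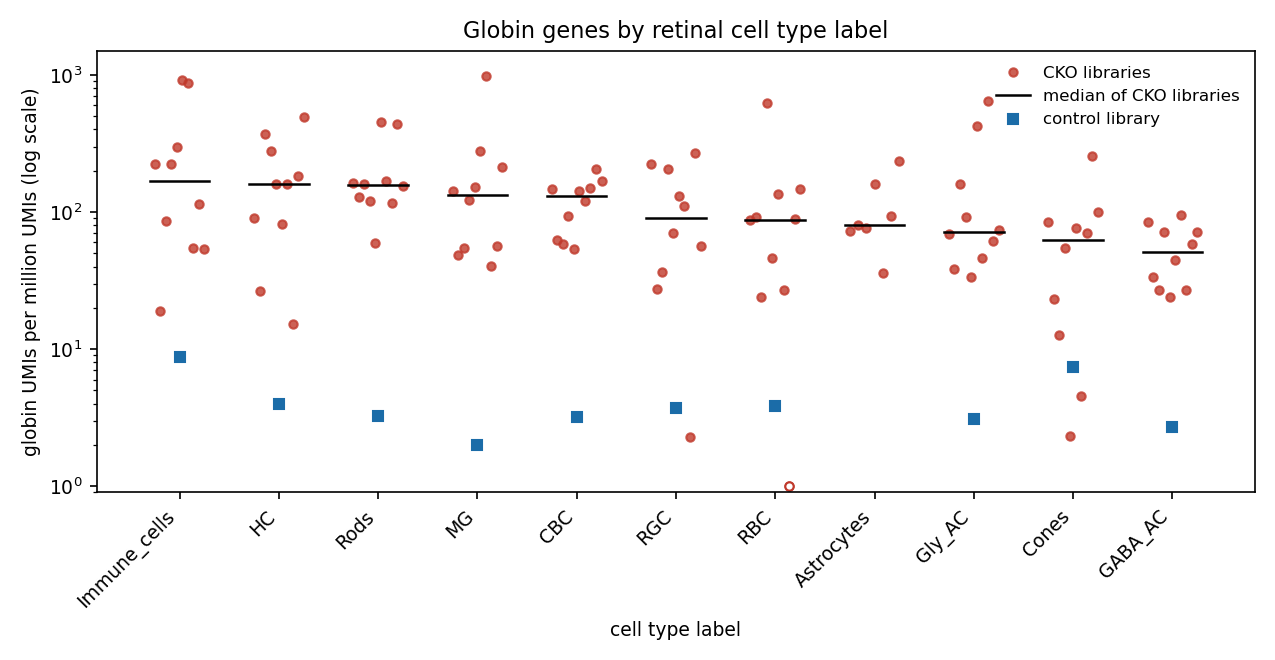
Globin CPM by retina cell type label on a log axis, for label by library sums of at least 50000 UMIs, with the control as a square, each CKO library as a circle and the CKO median as a black line (HC, horizontal cells, MG, Müller glia, CBC and RBC, cone and rod bipolar cells, RGC, retinal ganglion cells, Gly_AC and GABA_AC, glycinergic and GABAergic amacrine cells). The open symbol marks a value of 0, in rod bipolar cells of CKO7, drawn at the lower end of the axis, and astrocytes have no control point. CKO medians lie between 51.4 and 169 CPM, and CKO libraries of a label spread widely around them.

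A few nuclei carried most of the globin UMIs. Nuclei with at least 10 globin UMIs are called globin-rich below. There were 336 of them among 77676 retina nuclei, or 0.433%, and they held 69.8% of all globin UMIs. The control library held 0 of them in 11513 nuclei. Just inside the limit, 37 nuclei held 10 globin UMIs, and just outside it, 41 held 9. At the other end, 2891 of the 5754 nuclei with any globin UMI held 1.

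The concentration differed between libraries. The single nucleus with most globin UMIs held 4.22% of the library's globin UMIs in CKO3, a median of 17.1% and 84.1% in CKO4, where it carried 264 of 314. Without CKO4 the highest was 45.5%, in CKO7. In CKO7, 91 nuclei held a globin UMI and the 10 highest held 93.6% of them. In CKO10, 438 nuclei held the library's 1163 globin UMIs. CKO3 was thus the most even of the CKO libraries, with 21.5% of globin UMIs in globin-rich nuclei, and CKO4 and CKO7 the most concentrated. Without the nucleus with most globin UMIs in each library, an alternative chosen after seeing the data, the CKO median was 124 CPM and all 11 libraries were above the control. Among nuclei with under 10 globin UMIs the CKO median fell to 52.1 CPM, or 15.7 times the control, with all 11 libraries above it. That limit selects nuclei by globin itself and leaves out CKO nuclei only, so no direction is read from it.

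The nucleus with most globin UMIs, a rod of CKO5, held 3252 among 8303 UMIs, or 39.2%. The highest share in any retina nucleus was 57.9%, also in a rod of CKO5, with 970 of 1674 UMIs. Globin-rich nuclei had a median of 14549.5 UMIs against 1862 in the other nuclei, so the limit of 10 UMIs favors deep nuclei. By label, 31 of 541 horizontal cell nuclei were globin-rich, or 5.73%, then 2.01% of retinal ganglion cells, 1.53% of immune cells and 0.185% of rods. When nuclei were instead chosen from all nuclei by at least 3 globin UMIs that make up at least 1% of their total, there were 82, among them 49 rods, 7 immune nuclei and 0 horizontal cells. The high rate in horizontal cells was therefore not seen by share of UMIs. Alpha and beta chain UMIs occurred together in 97.9% of the 336 globin-rich nuclei.

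**Figure D3:**
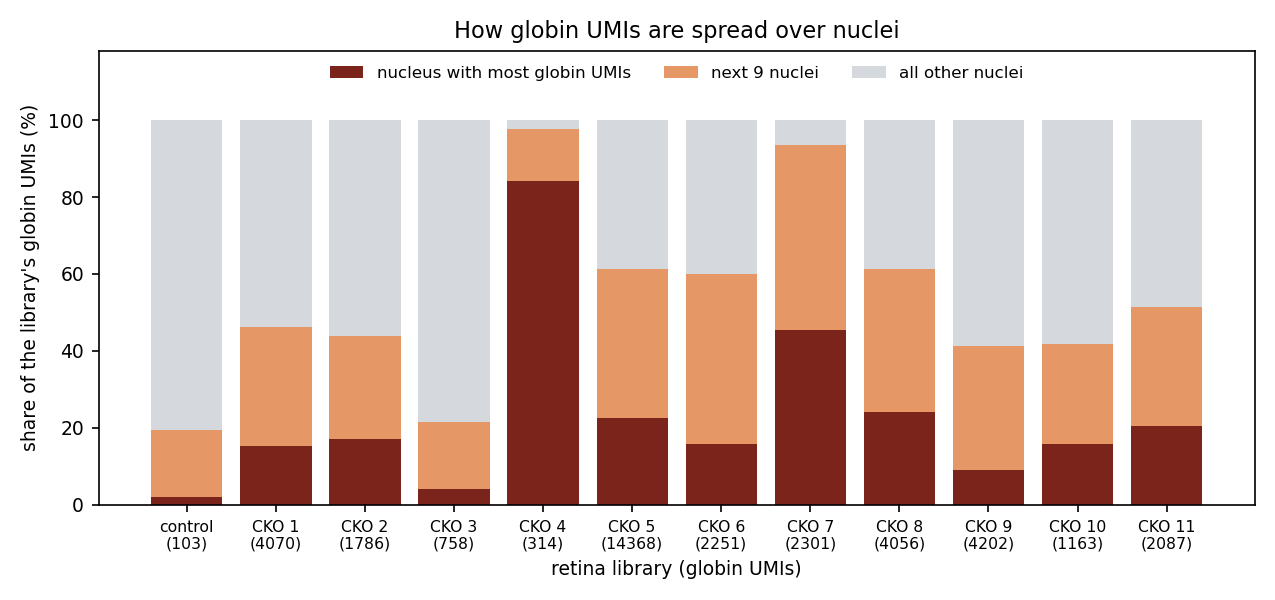
Share of each retina library's globin UMIs held by the nucleus with most of them, by the next 9 and by all other nuclei, as stacked bars in percent. The top nucleus holds between 4.22% and 84.1% in CKO libraries, 45.5% being the highest without CKO4, and in CKO7 the top 10 nuclei hold 93.6%.

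Other red cell transcripts were enriched in globin-rich retina nuclei to different degrees. *Alas2* was at 15.7 CPM in them against 2.48 CPM in the other nuclei, 6.34 times as much (interval 5.17 to 7.73). *Tent5c*, a poly(A) polymerase gene also active in red cell precursors, was 12.7 times as high, at 9.12 against 0.716 CPM. *Ube2l6*, picked after its values were seen, was 15.3 times as high, at 5.68 against 0.372 CPM. *Slc4a1*, which encodes the band 3 anion exchanger of the red cell membrane, was 6.15 times as high, from 8 UMIs. EC markers were at 125 CPM in globin-rich and 117 CPM in other nuclei, and rod markers at 9588 and 9196 CPM.

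The list of defining erythroid genes did not follow globin over retina libraries. Of its 14 genes 13 are listed for the retina, and 12 had a UMI, with *Tspo2* at 0 and *Rhd*, a blood group gene, the most abundant at 224 UMIs. Summed, the list was at 4.19 CPM in the control, from 130 UMIs, and between 1.25 and 3.58 CPM in the CKO libraries other than CKO4. In CKO4 it was at 33.2 CPM, from 3 UMIs. It was thus below the control in 10 of 11 CKO libraries. *Slc4a1* and *Klf1*, the latter an erythroid transcription factor gene, were below the control in 11 of 11, against 3.61% of all genes tested. Their control values rest on 12 and 11 UMIs, and neither passed edgeR's filter on low counts. In CKO4, where 1 UMI is 11.1 CPM, both were at 0, so its low depth fixed its place below the control. The filter passed 6 of the 14 genes, among them *Epb42* with 0 control UMIs and *Rhag*, which is high in CKO4 alone, so no median is given, and edgeR called 0 of the 6.

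The edgeR fit over retina libraries, with batch as a covariate, called 0 of 20904 genes at an adjusted p of 0.05, or 0%. At an unadjusted p of 0.05, 170 genes (0.813%) were higher and 58 (0.277%) lower in CKO libraries. DESeq2 called 10 of 20891 genes, or 0.0479%, of which 9 (0.0431%) were higher. These counts are over all genes fitted, and the hemoglobin genes were not left out of the fits. Nothing is read from them for the hemoglobin genes, whose own results in these fits are not used. Among the other genes that DESeq2 called were *Hmox1*, *Gfap*, *Edn2* and the lower gene *Gm17167*, all but *Hmox1* singled out after their values were seen. In this fit the genotype term rests on batch 1, and the spread of the lone control is taken from the CKO libraries.

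The genes that handle heme and iron were described next because they meet hemoglobin after red cells break down. Of the 23 genes, 22 were tested and 0 were called by edgeR, with a median log2 fold change of 0.14 against 0.01 over all genes tested. At the unadjusted p of 0.05, 3 were higher, *Hmox1*, *Ftl1* and *Slc40a1*, and 1 was lower, *Flvcr2*. All 11 CKO libraries lay above the control for 6 genes, *Hmox1*, *Ftl1*, *Blvrb*, *Fth1*, *Trf* and *Cp*, and below it for *Flvcr2*, against 3.41% and 3.61% of all genes. Without CKO4, 8 genes were above the control in all 10 libraries, against 7.37%. The list's summed level was 440.02 CPM in the control and between 451 and 1271 CPM in the CKO libraries, with 649 CPM the highest without CKO4.

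*Hmox1* (chr8:75820241-75827217, plus strand), which encodes the inducible heme oxygenase, showed the largest log2 fold change among the 22 genes tested. It was at 0.194 CPM in the control, from 6 UMIs. In the CKO libraries it was at 3.08 CPM in CKO7, 7.37 in the median and 66.3 in CKO4, the last from 6 UMIs. Without CKO4 the highest was 11.5 CPM, in CKO5, and no library overlapped the control. The log2 fold change was 5.02 ± 0.85 (SE), higher in 11 of 11 CKO libraries, with an adjusted p of 0.384 from edgeR and 2.1e-04 from DESeq2. Over the edgeR alternatives the adjusted p ranged from 0.157 to 1. An exact permutation test of the difference in means, two-sided, gave p = 0.167 over 12 libraries, where 0.0833 is the smallest possible. Without CKO4 it gave p = 0.0909 and in batch 1 p = 0.25, each the smallest that an exact test of these libraries allows.

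About as much *Hmox1* RNA lay in nuclei labeled immune as in all other CKO nuclei together. The immune nuclei held 911 UMIs, or 50.2% of *Hmox1* UMIs in CKO libraries, at 139 CPM in CKO4, the lowest, 262 in the median and 544 in the highest library, and at 156 CPM in the lowest without CKO4. In the control 0 UMIs were found in 29 immune nuclei with 114469 UMIs, which allows up to 26.2 CPM (3 counts of the total). In the other nuclei *Hmox1* was at 0.194 CPM in the control and at 0 in CKO4, 3.49 in the median and 5.16 in the highest CKO library. Without CKO4 the lowest in these nuclei was 1.72 CPM, in CKO7. It was above the control in 10 of 11 libraries there. Nuclei labeled immune were 0.252% of control nuclei and a median of 0.852% of CKO nuclei, and *Ptprc*, the general leukocyte marker, was at 2.07 CPM against 3.90 to 796 CPM, with 9.96 CPM the highest without CKO4. The part of immune cell numbers in the summed level was not tested, and more cells with *Hmox1* and more *Hmox1* RNA per cell cannot be told apart in sums over a library.

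*Ftl1* (chr7:45107367-45109308, minus strand), which encodes the ferritin light chain, was at 3.36 CPM in the control. In the CKO libraries it was at 8.07 CPM in the lowest, 14.5 in the median and 27.5 in the highest. The highest was CKO5 and the lowest CKO7, as for *Hmox1* without CKO4, and none overlapped the control. The log2 fold change was 1.93 ± 0.44 (SE), higher in 11 of 11 CKO libraries, with an adjusted p of 1 from edgeR and 0.465 from DESeq2.

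Heme synthesis genes other than *Alas2* showed 0 of 11 genes called by edgeR and 0 of 11 at an unadjusted p of 0.05, with a median log2 fold change of 0.15. Their summed level was 148 CPM in the control and between 147 and 199 CPM in the CKO libraries, with 182 CPM the highest without CKO4, which overlaps the control. Of 9 other globin genes, 5 are listed for the retina, and *Hbb-bh1*, *Hbb-bh2*, *Hbq1a* and *Hbq1b* are not. The embryonic genes *Hba-x* and *Hbb-y* had 0 UMIs. *Ngb*, which encodes neuroglobin, was at 1.10 CPM in the control against 1.04 in the median CKO library, and *Mb*, which encodes myoglobin, at 0.355 and 0.269 CPM. *Cygb*, which encodes cytoglobin, was at 8.20 CPM in the control against 12.3 in the median CKO library, above the control in 10 of 11. Their median log2 fold change was 0.01 over 3 genes tested, with 0 called.

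Markers of other blood and retinal cells were read beside the globin levels. Of 10 genes that red cells share with neurons or glia, 1 had an unadjusted p under 0.05, *Tent5c* at a log2 fold change of 1.66, and the median was 0.08. Platelet markers summed to 6.65 CPM in the control and 3.75 to 7.62 CPM in CKO libraries other than CKO4, where they were at 99.5 CPM. Neutrophil markers summed to 3.32 CPM in the control and 1.84 to 4.53 CPM in the same CKO libraries, with 77.4 CPM in CKO4. Neither sum separated the genotypes. Of these lists 6 platelet and 5 neutrophil genes passed the filter on low counts, some with 0 control UMIs, so no median is given.

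EC markers summed to 102 CPM in the control and 82.4 to 166 CPM in CKO libraries, 164 CPM the highest without CKO4, above the control in 8 of 11, with a median log2 fold change of −0.04 over 8 genes. Within batch 1 they were between 82.4 and 86.1 CPM, all below the control. Microglial markers had a median of 0.15 over 9 genes, and for the 7 macrophage markers, of which *Pf4* had 0 control UMIs, none is given. *F13a1* and *Cd74* of the macrophage list and *Csf1r*, *C1qb* and *C1qc* of the microglial list were above the control in 11 of 11 libraries, against 3.41% of all genes, whereas the microglial genes *P2ry12* and *Siglech* were below it in 10 of 11 and *Cx3cr1* in 6. Summed without CKO4, microglial markers were between 36.0 and 58.2 CPM against 45.8 CPM in the control, and macrophage markers between 7.12 and 13.8 CPM against 7.29 CPM. The marker genes of this paragraph were named after their values were seen. Rod markers had a median of −0.18 over 11 genes and pericyte markers 0.18 over 5, of which 1, *Rgs5*, was higher at an unadjusted p of 0.05. *Ptprc* had a log2 fold change of 1.69. By edgeR 0 genes of these lists were called, and the part of other blood cells in the globin levels was not tested.

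In the brain, globin was far more abundant than in the retina libraries other than CKO4, and it was lower in the CKO library than in the control. With 1 library per genotype, brain values have no replicates and no test, and a ratio beyond its interval compares these libraries and not the genotypes. Globin was at 2633 CPM in the control against 2157 CPM in the CKO library. The ratio of CKO to control was 0.819 (exact conditional binomial interval 0.812 to 0.827). *Hba-a1* was at 405 and 373 CPM, a ratio of 0.922, and *Hba-a2* at 483 and 410 CPM (409.6), a ratio of 0.847. *Hbb-bs* was at 1414 and 1090 CPM (1089.99), a ratio of 0.771, and *Hbb-bt* at 331 and 284 CPM, a ratio of 0.860. *Alas2* was at 9.22 and 6.77 CPM, a ratio of 0.734 (0.621 to 0.866). All 5 genes were lower in the CKO library, and 0 of them passed a 2-fold difference, which 400 of 20903 genes (1.91%) did upward and 894 (4.28%) downward, 6.19% in all. The ratio was 0.486 in nuclei labeled ECs and 0.395 in the others, so the ratio over all nuclei also depends on the share of each label. In nuclei with under 10 globin UMIs it was 1.53, but that limit selects nuclei by globin itself and leaves out 1252 control and 914 CKO nuclei, so no direction is read from it.

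Nuclei labeled ECs carried most of this RNA. They held 85.7% of the brain's globin UMIs and 88.0% of its *Alas2* UMIs, with 15.7% of all UMIs, and vascular smooth muscle cells (vSMCs) held 9.23% of globin UMIs. In ECs globin was at 18582 CPM in the control against 9033 CPM in the CKO library, a ratio of 0.486 (0.481 to 0.491). *Alas2* was at 69.6 and 27.0 CPM there, a ratio of 0.388 (0.324 to 0.463), from 404 and 185 UMIs. In ECs 3 of the 5 genes, *Hba-a2*, *Hbb-bs* and *Alas2*, were below a ratio of 0.5, as were 761 of 13154 genes, or 5.79%. The median log2 ratio over all genes was 0.14 in ECs.

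In vSMCs globin was at 10700.3 CPM in the control against 6704 CPM in the CKO library, a ratio of 0.627. Among the other labels with globin UMIs, the ratio was above 1 in Glut_20, glia, oligodendrocytes and Glut_11, the last from 15 control and 11 CKO UMIs, and below 1 in the rest. In the cluster Glut_20 globin was at 2069 and 5170 CPM (5169.6), a ratio of 2.50. In nuclei labeled glia it was at 1202 and 2762 CPM, a ratio of 2.30, and in oligodendrocytes at 8.38 and 23.3 CPM, a ratio of 2.78 from 13 and 17 UMIs. In the cluster CP_6 it was at 594 and 489 CPM, and in pericytes at 845 and 217 CPM, the latter from 2 UMIs. The direction between the libraries thus depended on the label. ECs held 5801552 of the control's UMIs and 6851854 of the CKO library's.

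**Figure D4:**
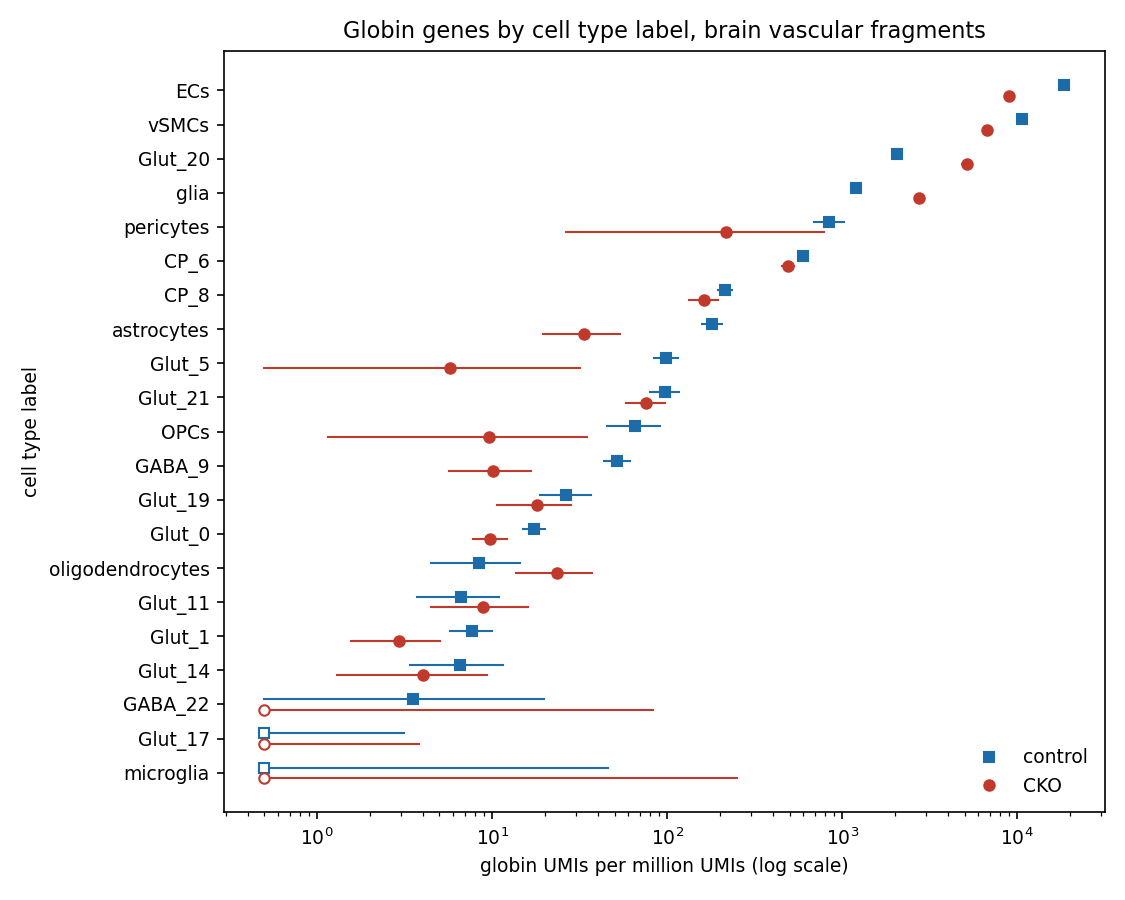
Globin CPM by brain cell type label in the control and CKO libraries on a log axis, with 95% Poisson intervals as bars and open symbols at the lower end of the axis for 0 UMIs. ECs and vSMCs are highest and lower in the CKO library, with ECs at 18582 and 9033 CPM, whereas Glut_20 and glia are higher in the CKO library.

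Most EC nuclei held globin UMIs. The share was 77.1% in the control against 79.2% in the CKO library, at median depths of 1347 and 1491 UMIs, and 66.0% and 60.6% after thinning to 500 UMIs. Of vSMC nuclei, 90.04% held a globin UMI over both libraries. In the neuron cluster Glut_0, taken as background, 1.29% of nuclei did at a median depth of 2878.5 UMIs, and 0.579% after thinning. In the neuron cluster Glut_17, 0 of 663 nuclei did, at a median depth of 2236 UMIs, and in microglia 0 of 140 did, at 405 UMIs. This allows shares with a globin UMI of up to 0.452% and 2.14%. At these depths it does not limit the share of nuclei that hold globin RNA. Globin UMIs were thus unevenly spread over labels of the same libraries, and after thinning the shares ran up to 75.8%, in vSMCs. The part of depth in this spread was not tested.

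Among EC nuclei the libraries differed more in the amount of globin per nucleus than in the share of nuclei with any. At least 10 globin UMIs were found in 877 of 2475 control nuclei, or 35.4%, and in 823 of 2944 CKO nuclei, or 28.0%. Over 5 classes of depth the ratio of globin CPM was between 0.427 and 0.567. *Alas2* UMIs followed globin UMIs within each library. They occurred in 27.0% of control EC nuclei with at least 10 globin UMIs and in 0.529% of those with none. In the CKO library the shares were 17.3% and 0.164%. The median depths of these classes were 2618 and 552 UMIs in the control, so part of the contrast goes with depth.

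Over the whole brain, 2166 nuclei were globin-rich and held 93.2% of globin UMIs. In them *Alas2* was at 71.4 CPM against 0.652 CPM in other nuclei, 110 times as much (109.6, interval 81.4 to 151). *Slc4a1* was 43.6 times, *Tent5c* 23.9 times and *Ube2l6* 17.9 times as high. The defining erythroid list summed to 23.9 CPM in globin-rich nuclei and 3.18 CPM in others. Markers of other cells were also higher in globin-rich nuclei. EC markers were at 8116 against 1226 CPM, macrophage markers at 180.2 against 33.2 CPM and microglial markers at 208 against 53.9 CPM. Platelet markers were at 44.2 against 8.46 CPM and neutrophil markers at 6.08 against 1.82 CPM. The ratios were larger than in globin-rich retina nuclei for these 4 genes, a difference that was not tested.

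The alpha chain share of globin UMIs was similar over the brain labels with most globin, at 34.6% in ECs, 33.5% in vSMCs, 37.1% in Glut_20, 38.1% in glia and 37.5% in CP_6. *Hbb-bt* made up 19.6%, 20.4%, 18.0%, 17.2% and 18.1% of beta chain UMIs in the same labels. The 4 genes thus stood in similar proportions in these labels, although globin was at 13411 CPM in ECs and 563 CPM in CP_6 over both libraries. In labels with fewer globin UMIs the shares varied more widely. CP_8 had 39.9% alpha chain and 13.5% *Hbb-bt* from 604 globin UMIs, and Glut_0 had 26.1% and 9.09% from 283. Across the 21 brain labels, globin CPM had a Spearman correlation of 0.74 with EC marker CPM. The labels share the same libraries and differ in depth, so this is a description.

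In the brain, the defining erythroid list summed to 5.32 CPM in the control against 5.54 CPM in the CKO library, and platelet markers to 13.3 and 10.7 CPM. Among other globin genes *Hbb-y* had 7 control and 24 CKO UMIs, a ratio of 5.50 (2.30 to 15.1), while *Hbq1a* had 15 UMIs and *Hbq1b* 7 in all. In heme and iron handling, 3 of 23 genes were above a ratio of 2, *Hmox1* at 2.21, *Abcg2* at 2.11 and *Ncoa4* at 2.01, and 1 was below 0.5, *Cd163*, the receptor for hemoglobin bound to haptoglobin, at 0.296. Of 11 heme synthesis genes 0 passed either limit. In the EC list *Cdh5* was at 2.31 and *Emcn* at 2.38.

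The platelet genes *Gp6* and *Treml1* were at 0.478 and 0.401. The microglial gene *Tmem119* was at 0.329, and the macrophage genes *Mrc1*, *Lyve1* and *F13a1* at 0.467, 0.449 and 0.186. These genes were named for a ratio below 0.5, and other genes of the same lists were higher in the CKO library, with *Clec1b* at 1.15 and *Gp1bb* at 1.13 among platelet genes and *Cd74* at 1.17 among macrophage genes, picked after their values were seen. The median log2 ratio was −1.10 for the macrophage list, −0.55 for the microglial list, −0.42 for the platelet list and −0.24 for the 5 hemoglobin genes. It was 0.48 for the EC list, 0.15 for heme synthesis and 0.13 for heme and iron handling, against 0.01 over all genes. The part of these cells in the globin levels was not tested.

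Genes whose level was most like summed globin were ranked by Spearman correlation over label by library sums. In the retina, over 117 sums and 16524 genes, these were *Edn2* at 0.615, *Fgf2* at 0.536, *Gm45463* at 0.533, *Scube1* at 0.497 and *Fgf2os* at 0.495. *Hmox1* was at rank 13 with 0.41 and *Alas2* at rank 5523 with 0.08. In the brain, over 39 sums and 14444 genes, they were *Sparc* at 0.945, *mt-Co3* at 0.940, *Actb* at 0.937, *Tceal9* at 0.913 and *Lsr* at 0.909, with *Alas2* at rank 1357 and 0.752. Sums of a library share its preparation and depth, so these values describe likeness only.

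The promoters of the genes are shown because the 4 globin genes moved together over retina libraries while *Alas2* did not. In the brain all 5 genes were lower in the CKO library. RefSeq promoters matched all 5 genes. Each line gives the 120 bases before the annotated start, 5′ to 3′ on the gene's strand, on GRCm38.p6, with motif matches on either strand in capitals. The positions are chr11:32283552-32283671 (plus) for *Hba-a1*, chr11:32296372-32296491 (plus) for *Hba-a2*, chr7:103827929-103828048 (minus) for *Hbb-bs*, chr7:103813924-103814043 (minus) for *Hbb-bt* and chrX:150547297-150547416 (plus) for *Alas2*.
Hba-a1: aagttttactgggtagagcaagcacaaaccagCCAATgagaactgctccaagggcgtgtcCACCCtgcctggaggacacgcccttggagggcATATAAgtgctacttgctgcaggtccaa
Hba-a2: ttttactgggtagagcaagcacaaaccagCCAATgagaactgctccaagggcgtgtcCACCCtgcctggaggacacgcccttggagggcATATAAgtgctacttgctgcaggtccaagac
Hbb-bs: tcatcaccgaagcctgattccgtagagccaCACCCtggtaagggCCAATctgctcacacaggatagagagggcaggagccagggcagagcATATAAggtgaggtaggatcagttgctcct
Hbb-bt: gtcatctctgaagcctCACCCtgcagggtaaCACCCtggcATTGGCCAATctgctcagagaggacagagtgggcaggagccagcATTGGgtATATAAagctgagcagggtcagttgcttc
Alas2: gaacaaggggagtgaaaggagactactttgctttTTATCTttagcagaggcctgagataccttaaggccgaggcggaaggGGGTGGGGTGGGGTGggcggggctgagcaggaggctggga

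The motifs searched on both strands were ATATAA, the form of the TATA box in these genes, then CCAAT and CACCC, and the GATA forms AGATAA or TGATAA or AGATAG or TGATAG. In windows of 120 bases, ATATAA occurs in 4.47% of 32851 promoters, CCAAT in 21.3%, CACCC in 31.7% and any of the GATA forms in 12.8%. All 4 globin promoters hold ATATAA and CCAAT and CACCC, with 3 CCAAT and 2 CACCC matches in *Hbb-bt*. The *Alas2* window holds 3 CACCC matches on the reverse strand and 1 match of a GATA form, and neither ATATAA nor CCAAT. Over 250 bases, where 26.5% of promoters hold a GATA form, *Hba-a1*, *Hba-a2* and *Hbb-bs* also hold 1 match and *Hbb-bt* holds 0. The upstream windows of *Hba-a1* and *Hba-a2* are identical at 95.1% of aligned positions and those of *Hbb-bs* and *Hbb-bt* at 74.6%. A match describes letters in the window and does not show that a factor binds there.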

How the data were processed

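The deposited matrices hold counts, UMIs of each gene in each nucleus, from the authors' PIPseeker runs on GRCm39 (the labels name mm10), with CellBender for background, SOLO for doublets and manual removal of mixed nuclei. Labels, batch and kit are the authors' metadata. UMIs were summed per library and label and divided by total UMIs (CPM). Libraries were the replicates, and the spread of the single control retina is taken from the CKO libraries. All genes that passed the filter on low counts were fitted with edgeR 4.0.16 (quasi-likelihood, batch as covariate, Benjamini-Hochberg, threshold 0.05) and DESeq2 1.42.0 in R 4.3.3. Results for single genes are given only outside the 5. The procedure was tested on simulated data, where it missed most 2-fold changes and made more false calls than the threshold allows. Thus 0 calls do not show that genes did not differ. Brain libraries were compared by ratios for genes with at least 20 UMIs. The 5 genes and the lists were chosen with earlier results of these data known. Named genes are the 5, other globin and defining erythroid genes, list genes called in the retina or past 2-fold in the brain, and the 5 most like globin, with a pseudocount of 1 CPM, from genes of at least 200 UMIs. Others named were picked after their values were seen. Thinning to 500 or 1000 UMIs left out nuclei under that depth. Intervals are 95%. Sums, ratios and plots were made with scipy 1.17.1, Biopython 1.88, pandas 2.3.3, matplotlib 3.10.9 and numpy 2.4.6 under Python 3.11.15. Alternatives covered depth, kit, batch, weighting, scaling, filters and left-out libraries.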

Additional observations from a re-analysis of the deposited data

Results flagged for a closer look

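Summed globin was higher in the CKO library than in the control in 11 of 11 retina libraries, whereas in the brain it was lower in the CKO library, at a CKO over control ratio of 0.819. What called attention to it is the opposite direction of the 2 tissues. In brain nuclei with under 10 globin UMIs the ratio was 1.53, but that limit selects nuclei by globin itself, so no direction is read from it. The difference was not tested, because the brain has 1 library per genotype. Within the brain the direction also varied by label, with ratios of 0.486 in ECs, 0.395 outside ECs and 2.50 in the cluster Glut_20.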

How the results depend on the processing

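Depth, the single control retina library and 1 brain library per genotype limit these results. No paired analysis was possible because no labels pair the libraries. Of the alternatives for the main values, 30 stayed within the spread or the same side of the threshold, 28 moved and 1 turned the direction, and the cause was not tested unless given. The retina globin level was within the spread for batch 1, the earlier kit, rods, nuclei not labeled immune, nuclei of at least 1000 UMIs and without CKO4. In nuclei with under 10 globin UMIs the retina CKO median was 52.1 CPM and its ratio to the control 15.7. That limit selects nuclei by globin itself. With equal weight per nucleus the retina ratio was 77.8. The brain globin ratio was 0.624 with equal weight, 0.810 with TMM scaling, 0.833 in nuclei of at least 1000 UMIs, 0.486 in ECs, 0.627 in vSMCs (chosen after seeing the data) and 0.395 outside ECs. In brain nuclei with under 10 globin UMIs it turned to 1.53, a limit that selects nuclei by globin itself. The *Alas2* ratio in EC nuclei with under 10 globin UMIs was 0.283. Genes past 2-fold in the brain numbered 1294, and 558 when at least 100 UMIs were needed, where fewer genes were tested. Retina genes called by edgeR numbered 0, and 1 without a covariate, 1 in rods and 10 by DESeq2, while leaving out CKO1, CKO2, CKO3, CKO4 or both CKO4 and CKO5 gave 0. *Hmox1* outside immune nuclei, chosen after seeing the data, had a CKO median of 3.49 CPM, and in DESeq2 its log2 fold change was 5.04. The share of globin UMIs in rich nuclei was 78.3%, 63.7% and 50.4% in the retina and 96.8%, 88.4% and 84.8% in the brain, for at least 5 UMIs, at least 20 UMIs, and at least 1% of the nucleus with at least 3 UMIs. Thinning to 500 and 1000 UMIs gave shares of nuclei with globin of 0.0737% and 0.201% in the control retina. The shares were 60.6% and 73.8% in CKO ECs and 66.0% and 82.4% in control ECs, and 1.87% at 500 UMIs for the CKO retina median. Each depth leaves out the nuclei below it, so these shares are of different sets of nuclei.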
